A study of Mus musculus with 16 samples.

Results

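The genes of the Wnt pathway described here were 48 mouse genes chosen by name, of 21938 protein-coding genes in all: 19 ligands, 12 receptors, 9 secreted antagonists and 8 intracellular effectors. All 48 symbols matched a single gene of the annotation. The question was where the fusion oncoprotein EWSR1::ATF1 (EA1), RNA polymerase II and acetylated histone lay along these genes in mouse clear cell sarcoma, a tumour of soft tissue with melanocytic features. Chromatin immunoprecipitation and sequencing (ChIP-seq) was done on 16 labelled tumour samples, with 4 for the V5 tag of the fusion, 4 for RNAPOL2 (polymerase II in its phosphorylated form), 4 for H3K27ac (histone H3 acetylated at lysine 27, a mark of active promoters and enhancers) and 4 of input chromatin.

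Every sample carried the genotype EWSR1::ATF1, and there was no group of normal tissue, of tumours without the fusion or of treated animals. The human fusion with its tag was expressed from the Rosa26 locus after TATCre protein, injected into the hindlimb of young mice of mixed strain background, removed a stop cassette. Whole tumours were ground, so chromatin of host cells was included. The deposited data used here were 3 peak lists, 1 for each antibody, with a position and a score for each peak and with no values by sample. V5 had 10665 peaks, RNAPOL2 had 20375 and H3K27ac had 27552. The study uses sets of fusion sites of different sizes, and the V5 list is shorter than the largest of them, so a gene without V5 here is without V5 in this list, and may have a site in a longer one. The median score was 230 for V5, 246 for RNAPOL2 and 212 for H3K27ac, on a scale that is not stated, so a score is read only against others of its list and rank 1 is the highest. With a single list for each antibody there was no spread between tumours, no depth for any sample and no test: the counts and shares that follow describe these lists.

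Markers of cell types were read first, because a peak from a whole tumour can come from any of its cells and more cells of a type cannot be told apart from more signal per cell. Of 6 skeletal muscle genes (Myod1, Myog, Acta1, Ckm, Myh4 and Des), 0 had a promoter peak in any list. All 4 leukocyte genes (Ptprc, Cd68, Csf1r and Cd3e) and all 3 endothelial genes (Pecam1, Cdh5 and Kdr) had an H3K27ac promoter peak, and 1 of each set, Cd68 and Kdr, had an RNAPOL2 promoter peak as well. Of 8 melanocytic genes, Mitf and Pmel had both marks at their promoters, S100b had H3K27ac, Dct had V5, and Sox10, Tyr, Tyrp1 and Mlana had none. Over all protein-coding genes, 58.6% had an H3K27ac promoter peak, 53.5% an RNAPOL2 promoter peak and 16.6% a V5 promoter peak. No promoter peak in any list was found for 39.9%. Sets of 3 to 8 markers are small beside such shares, so their counts do not measure how many cells of a type were present. The part of host cells in the RNAPOL2 and H3K27ac peaks of Wnt genes was not tested.

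Wnt proteins are secreted, lipid-modified ligands that bind Frizzled receptors together with the co-receptors LRP5 and LRP6. In the absence of ligand, a complex that holds AXIN and APC marks beta-catenin (Ctnnb1) for destruction, and with ligand beta-catenin accumulates and works with the TCF and LEF proteins at target genes. Dickkopf proteins act on the co-receptors, while secreted frizzled-related proteins and WIF1 bind the ligands. In the neural crest, Wnt signalling favours the melanocyte fate.

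The fusion was listed at few of these genes, and the sequences under its peaks show which letters were there. A promoter peak shared at least 1 base with the 3 kb on either side of any transcription start site (TSS) of a gene, and a body peak touched the gene but no such window. The next 6 sequences are the stretches around the nearest motif to the middle, or around the middle where there was none, of the 3 highest-scored V5 promoter peaks and the 3 highest-scored V5 body peaks of Wnt genes. They are from GRCm38 (mm10), plus strand, up to 150 bases and without exon bases. Capitals mark matches to TGACGTCA (the ATF/CREB motif), to other sequences of the form TGANNTCA (variants of it), to TGAGTCA (AP1) and to CTTTGAT (TCF/LEF) on either strand, and the TGA or TCA units of a string, which holds over 4 such units spaced no further than 5 bp apart.
Lrp6 promoter, chr6:134567277-134567420: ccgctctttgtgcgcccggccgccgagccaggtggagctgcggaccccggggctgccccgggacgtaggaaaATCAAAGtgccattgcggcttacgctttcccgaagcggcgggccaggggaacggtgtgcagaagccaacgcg
Lrp6 near an internal TSS, chr6:134473300-134473449: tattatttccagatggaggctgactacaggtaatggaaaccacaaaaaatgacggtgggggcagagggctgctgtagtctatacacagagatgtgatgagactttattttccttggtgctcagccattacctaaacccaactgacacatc
Ctnnb1 promoter, chr9:120933310-120933399: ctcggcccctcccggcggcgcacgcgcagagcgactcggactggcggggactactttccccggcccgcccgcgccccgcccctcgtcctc
Dkk3 intron, chr7:112138357-112138506: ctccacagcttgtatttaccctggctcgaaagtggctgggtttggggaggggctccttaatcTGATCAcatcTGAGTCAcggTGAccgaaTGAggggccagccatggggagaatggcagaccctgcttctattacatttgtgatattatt
Lrp6 intron, chr6:134476659-134476808: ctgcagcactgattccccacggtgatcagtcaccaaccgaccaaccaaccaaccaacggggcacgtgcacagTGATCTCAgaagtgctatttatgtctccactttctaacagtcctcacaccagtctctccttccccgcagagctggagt
Dkk3 intron, chr7:112135665-112135814: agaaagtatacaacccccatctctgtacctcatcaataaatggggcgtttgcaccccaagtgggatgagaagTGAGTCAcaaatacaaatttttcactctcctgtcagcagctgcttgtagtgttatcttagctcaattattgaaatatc

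The Ctnnb1 stretch and the internal Lrp6 stretch held none of the motifs searched. The Lrp6 promoter stretch held a TCF/LEF match, and both Dkk3 stretches held an AP1 match, which in the higher-scored peak lay inside a string of 6 units. These letters are matches to a pattern and not measured contacts.

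The next sequences come from the 3 highest-scored V5 peaks that lay outside any Wnt gene or its promoters but had a Wnt gene's TSS as their nearest protein-coding TSS. They were chosen after the scores were seen, because these scores exceeded those at every promoter of the set.
Fzd10, upstream, chr5:128534511-128534660: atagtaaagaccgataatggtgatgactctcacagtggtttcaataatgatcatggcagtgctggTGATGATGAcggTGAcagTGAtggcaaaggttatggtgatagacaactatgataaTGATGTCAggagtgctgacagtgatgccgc
Wnt7a, upstream, chr6:91440913-91440986: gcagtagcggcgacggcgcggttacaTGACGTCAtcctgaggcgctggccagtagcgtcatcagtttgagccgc
Dkk2, upstream, chr3:132006983-132007132: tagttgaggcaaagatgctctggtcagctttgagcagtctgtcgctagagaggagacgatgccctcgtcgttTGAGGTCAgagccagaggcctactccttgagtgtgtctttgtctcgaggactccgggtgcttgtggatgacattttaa

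Taken over all 48 genes, polymerase and acetylation stood at about the share of promoters seen across the genome, while the counts differed between the roles within the pathway. An RNAPOL2 promoter peak was listed for 25 genes (52.1%), against 53.5% of all protein-coding genes. An H3K27ac promoter peak was listed for 28 (58.3%), against 58.6%. Both marks together were at 24 promoters (50%), against 52.2%, and 19 genes (39.6%) had no promoter peak in any list, against 39.9%. These 4 shares lie near the background and say nothing particular about the set. V5 was at 4 promoters (8.33%), those of Fzd3, Fzd6, Lrp6 and Ctnnb1, against 16.6% of all protein-coding genes. The same 4 promoters carried all 3 peaks (8.33%), against 15.9%. Among promoters with both RNAPOL2 and H3K27ac, a background chosen after the counts were seen, V5 was at 4 of 24 Wnt genes (16.7%) and at 30.4% of protein-coding genes. By number of TSSs, V5 was at 0 of 19 Wnt genes with 1 TSS, beside 7.46% of protein-coding genes, at 2 of 17 with 2 to 4 (11.8%, beside 13.1%) and at 2 of 12 with 5 or more (16.7%, beside 26.4%).

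**Figure D1:**
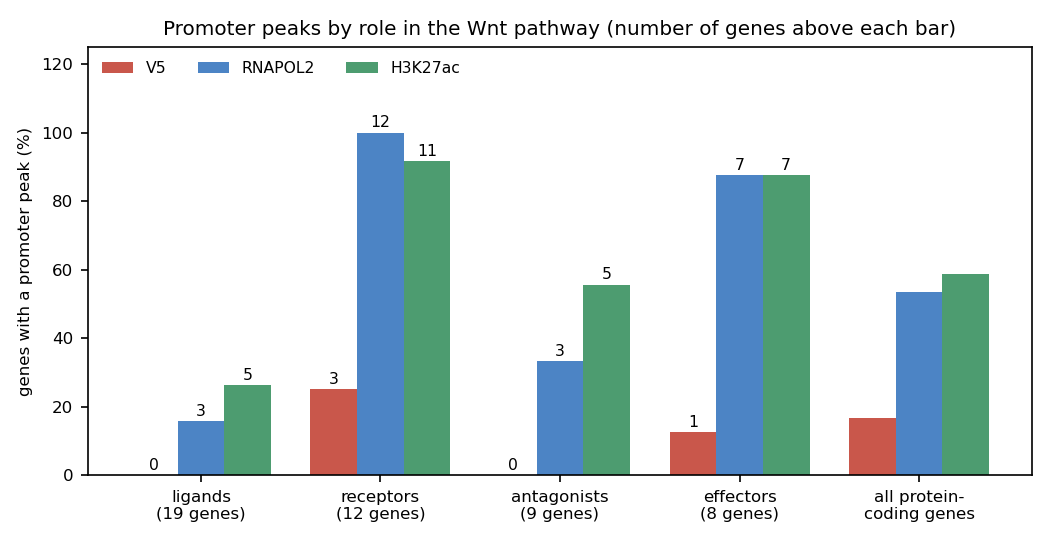
Share of genes (%, bars from 0) with a V5, RNAPOL2 or H3K27ac peak within 3 kb of a TSS, for each role in the Wnt pathway and for all 21938 protein-coding genes, with the number of genes above each bar of the Wnt roles. Receptors (12 RNAPOL2 and 11 H3K27ac of 12) and effectors (7 and 7 of 8) stand above all protein-coding genes, and ligands (3 and 5 of 19) below. V5 is at 0 ligands and 0 antagonists, and in each of these roles only 3 genes have both other peaks.

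The ligands were mostly without marks. Promoter peaks in both the RNAPOL2 and the H3K27ac list were found for 3 of 19, Wnt4, Wnt9a and Wnt11, beside 52.2% of protein-coding genes. A V5 peak was at 0 of 19 promoters (beside 16.6%) and in 0 of 19 bodies (beside 7.10%). Among promoters with both marks, V5 was at 0 of 3 ligands, beside 30.4%, so the 0 is not read as a trait of the ligands. Wnt9a, a ligand with roles in joint and blood development, had the highest RNAPOL2 score among the ligands at 2926 (rank 869), above 91.5% of the protein-coding genes with such a peak, and an H3K27ac score of 659 (rank 7342). Wnt11, which acts on cell movement largely without beta-catenin, had 835 for RNAPOL2 and 215 for H3K27ac. Wnt4, a ligand of kidney and gonad development, had 258 and 65. The median over protein-coding genes with a promoter peak was 912 for RNAPOL2 and 863 for H3K27ac, so Wnt9a alone among the ligands exceeded the polymerase median and all 3 stayed under the acetylation median.

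Wnt5b and Wnt10a had H3K27ac but no RNAPOL2 at the promoter, with scores of 120 and 69. Wnt5b also had the highest-scored body peaks of the ligands, an RNAPOL2 peak of 1265 and an H3K27ac peak of 5270 (rank 142), but both lay at the promoter of Fbxl14, whose TSS lies within the 111817 bp of Wnt5b, and cannot be read as Wnt5b marks. The other 14 ligands had no promoter peak in any list: Wnt1, Wnt2, Wnt2b, Wnt3, Wnt3a, Wnt5a, Wnt6, Wnt7a, Wnt7b, Wnt8a, Wnt8b, Wnt9b, Wnt10b and Wnt16. Wnt3 had a weak H3K27ac peak in an intron, with a score of 49. Of the ligands in neighbouring pairs, Wnt9a was marked while Wnt3a, with a TSS 16176 bp from the nearest TSS of Wnt9a, was not. Wnt10a had weak acetylation while Wnt6, of which an internal TSS is the nearest at 9077 bp, had none, and both members of the pairs Wnt1 with Wnt10b and Wnt3 with Wnt9b were without promoter peaks.

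**Figure D2:**
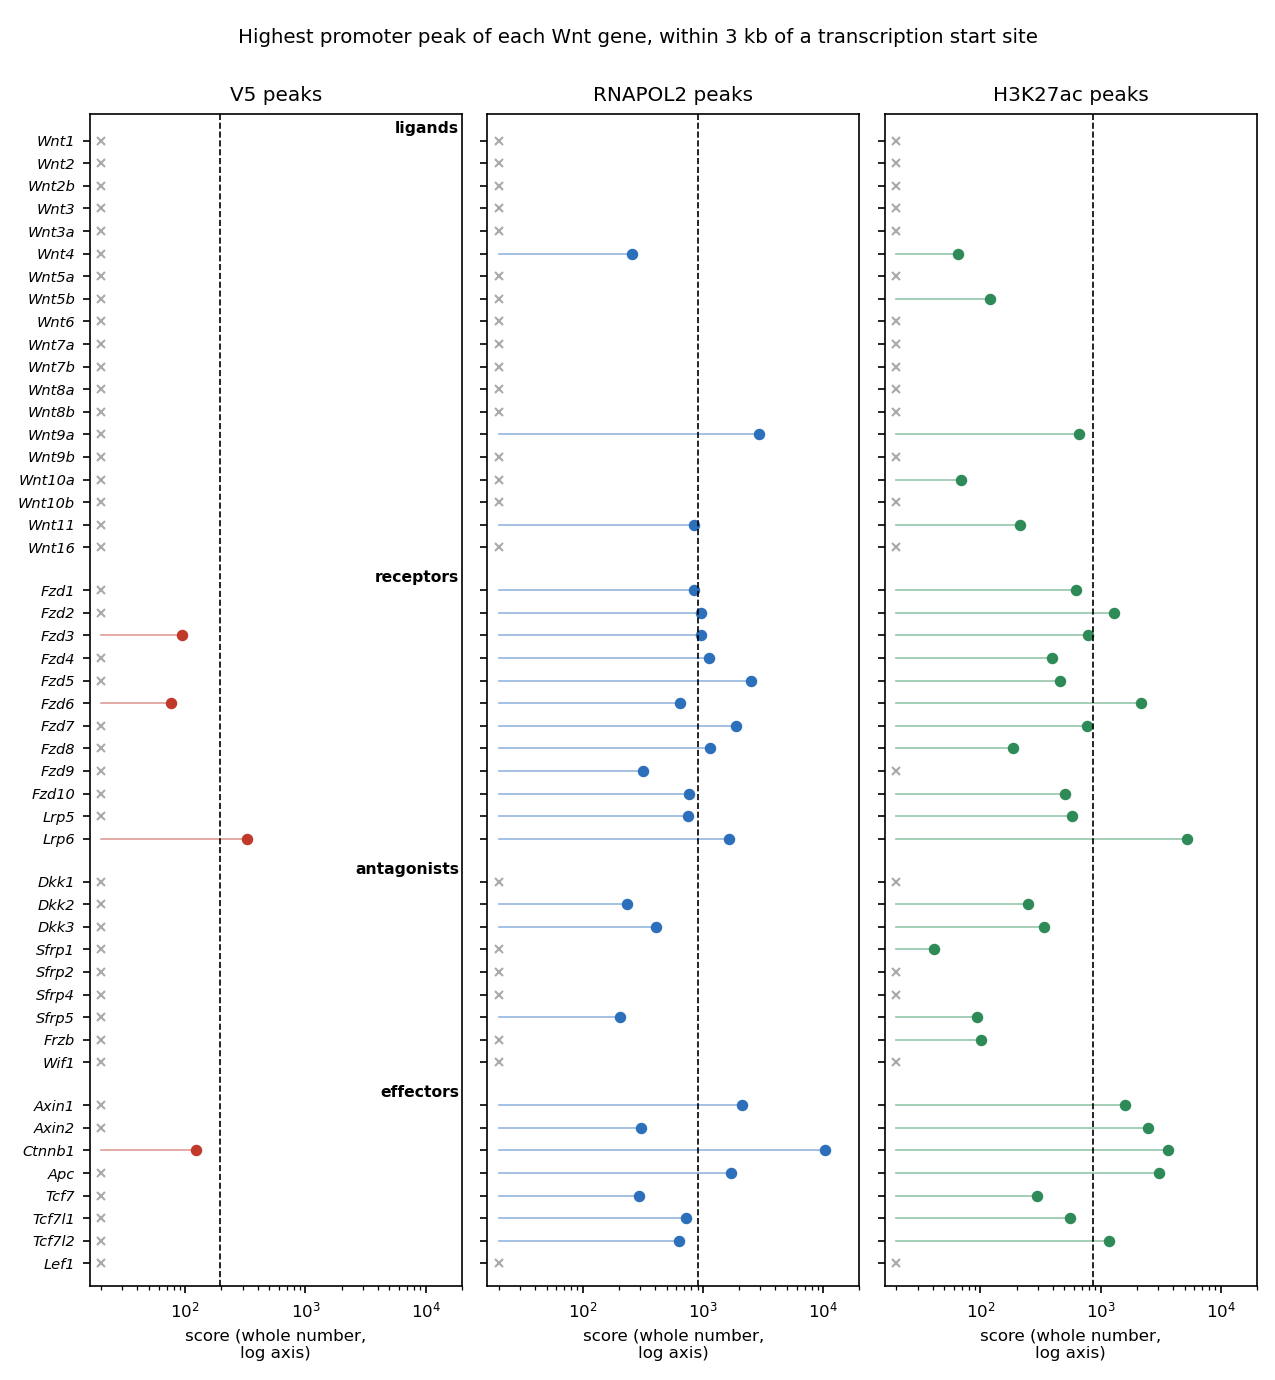
Score (log axis, scale not stated) of the highest V5, RNAPOL2 and H3K27ac peak within 3 kb of a TSS of each of the 48 Wnt genes, grouped by role, where a grey cross marks a gene with no such peak and the dashed line is the median over protein-coding genes with one. Most ligands show crosses throughout, while Ctnnb1 has the highest RNAPOL2 score (10336) and Lrp6 the highest H3K27ac score (5248).

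The receptors carried polymerase throughout. All 12 had an RNAPOL2 promoter peak, 11 had H3K27ac, and 3 had V5. RNAPOL2 scores ran from 319 at Fzd9 to 2504 at Fzd5, with a median of 962 beside 912 over protein-coding genes, and H3K27ac scores ran from 186 at Fzd8 to 5248 at Lrp6, with a median of 630 beside 863. Fzd9 was the receptor without acetylation. The number of TSSs sets how much window a gene offers, and many Frizzled genes have a single TSS. Over all roles, an RNAPOL2 promoter peak was at 11 of 19 Wnt genes with 1 TSS (57.9%, beside 25.5% of protein-coding genes), at 6 of 17 with 2 to 4 (35.3%, beside 46.2%) and at 8 of 12 with 5 or more (66.7%, beside 79.6%).

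The rank order of the Frizzled genes was not the same for both marks. Fzd5 led in RNAPOL2 (2504, rank 1179), followed by Fzd7 (1884), Fzd8 (1150), Fzd4 (1122), Fzd2 (966), Fzd3 (958), Fzd1 (835), Fzd10 (760), Fzd6 (642) and Fzd9 (319). Fzd6 led in H3K27ac (2176, rank 1807), followed by Fzd2 (1300), Fzd3 (780), Fzd7 (777), Fzd1 (630), Fzd10 (504), Fzd5 (463), Fzd4 (397) and Fzd8 (186). With no replicate lists, neighbours in either order cannot be separated. The Fzd4 peaks also touched promoter windows of Tmem135, so they are not assigned to Fzd4 alone.

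At Fzd2 and Fzd10, both of them short genes, acetylation covered most of the gene. H3K27ac peaks covered 90.0% of the 3663 bp of Fzd2 and 86.1% of the 3250 bp of Fzd10, and RNAPOL2 peaks covered 45.5% and 76.0%. At Fzd10 a further RNAPOL2 peak of 146 ran 2147 bp past the end of the gene. Over the summed length of all 12 receptors, H3K27ac covered 7.95% and RNAPOL2 2.72%, beside 3.15% and 2.16% over all protein-coding genes. The values were 7.21% and 2.53% over the antagonists, 2.38% and 1.98% over the effectors, and 2.52% and 0.859% over the ligands. A peak of a given width covers more of a short gene, so these shares depend on gene length. Without the peaks at the Fbxl14 promoter inside Wnt5b, the ligand values were 1.93% and 0.522%.

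The co-receptors differed in the fusion. Lrp6 had the highest-scored V5 promoter peak among the Wnt genes, at chr6:134566781-134567420, with a score of 326 (rank 3833) and its middle 135 bp upstream of a TSS. RNAPOL2 scored 1638 there and H3K27ac 5248 (rank 148), above 98.8% of acetylated protein-coding promoters. Lrp6 had another V5 promoter peak of 230, 2082 bp upstream of an internal TSS that belongs to a noncoding transcript of the gene, so that it is a body peak when only protein-coding transcripts are counted. This peak overlapped an H3K27ac peak of 150 and no RNAPOL2 peak. A V5 body peak of 143, in another position of an intron, overlapped neither mark. A V5 peak of 253 lay past the end of the gene on an H3K27ac peak of 110. Lrp5 had RNAPOL2 (745) and H3K27ac (573) at its promoter, H3K27ac peaks of 215 and 91 in introns, and no V5 peak.

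The V5 peaks at the Frizzled promoters were low. The Fzd3 peak, at chr14:65262251-65262820, scored 94 (rank 8778) with its middle 72 bp upstream of a TSS, where RNAPOL2 scored 958 and H3K27ac 780. The Fzd6 peak, at chr15:39007071-39007680, scored 76 (rank 9387) with its middle 12 bp upstream of an internal TSS, where RNAPOL2 scored 642 and H3K27ac 2176. Both scores were at or under 94, the lower quartile over the 3640 protein-coding genes with a V5 promoter peak, whose median was 196. Fzd3 had a further V5 peak of 59 in its body, 25106 bp from the nearest TSS, with neither mark.

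The antagonists had marks at some promoters and few strong ones. Dkk2, Dkk3 and Sfrp5 had both RNAPOL2 and H3K27ac at the promoter, and Sfrp1 and Frzb had H3K27ac. Dkk1, Sfrp2, Sfrp4 and Wif1 had no promoter peak. V5 was at 0 of 9 antagonist promoters, beside 16.6% of all protein-coding genes. Of the antagonists with both marks V5 was at 0 of 3, beside 30.4%, so the 0 rests on few genes. RNAPOL2 scores were 403 at Dkk3, 235 at Dkk2 and 202 at Sfrp5, all under the lower quartile of 448 over protein-coding promoters. H3K27ac scores were 339 at Dkk3, 249 at Dkk2, 101 at Frzb, 93 at Sfrp5 and 41 at Sfrp1, all under the lower quartile of 372. The scores of Sfrp1, Sfrp5 and Frzb were above 0.179%, 5% and 5.17% of acetylated protein-coding promoters.

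Dkk3, a divergent Dickkopf relative, was the antagonist with the fusion in its body. Body peaks of V5 were listed for 3 Wnt genes (6.25%), Fzd3, Lrp6 and Dkk3, against 7.10% of protein-coding genes. The main Dkk3 peak, at chr7:112137881-112138830 in an intron 20702 bp downstream of the TSS, scored 1025 (rank 1200), more than any V5 promoter peak of the set, and overlapped an H3K27ac peak of 279 and an RNAPOL2 peak of 49. Weaker V5 peaks of 122 and 103 lay in introns. The first overlapped the edge of the same H3K27ac peak of 279, and the second lay on an H3K27ac peak of 230. A V5 peak of 275 lay 5918 bp upstream of the gene on an H3K27ac peak of 110. H3K27ac covered 37.3% of the 43041 bp of Dkk3. When H3K27ac peaks within 12 kb were joined, a grouping added after the values were seen, 6 of them formed a stretch of 27220 bp in the gene with 3 V5 and 3 RNAPOL2 peaks. A second stretch of 31120 bp, with 5 H3K27ac peaks and 1 V5 peak, began 12480 bp away at the promoter and ran upstream, so the slightly longer distance that the study used to join peaks for its super-enhancers would make them a single stretch. In all, 5 Wnt genes (10.4%) had a stretch of at least 3 H3K27ac peaks in the gene or within 3 kb of it, against 16.5% of protein-coding genes. The others were Fzd6 and Lrp6, with 1 V5 peak each, and Lrp5 and Sfrp5, with 0. The Lrp6 stretch lay at the end of the gene and also covered part of Bcl2l14, and the Sfrp5 stretch reached Zfyve27.

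RNAPOL2 body peaks were listed for 6 Wnt genes (12.5%), against 11.2%, and H3K27ac body peaks for 10 (20.8%), against 13.8%. The RNAPOL2 count includes Wnt5b through the Fbxl14 promoter. Leaving out body peaks that touch any coding promoter, a choice made after the values were seen, gave 5 Wnt genes (10.4%) beside 8.51% of protein-coding genes for RNAPOL2, and 10 (20.8%) beside 12.1% for H3K27ac. Long genes have more room for such peaks. In the longest quartile of protein-coding genes, from 45110 bp up, 34.2% had an H3K27ac body peak and 22.4% a V5 body peak, and of the 13 Wnt genes of that length 4 (30.8%) and 2 (15.4%) did. In the quartile below it, 14.1% of protein-coding genes had an H3K27ac body peak and 6 of 16 Wnt genes (37.5%) did, so the higher H3K27ac share was not the same in both classes of length.

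**Figure D3:**
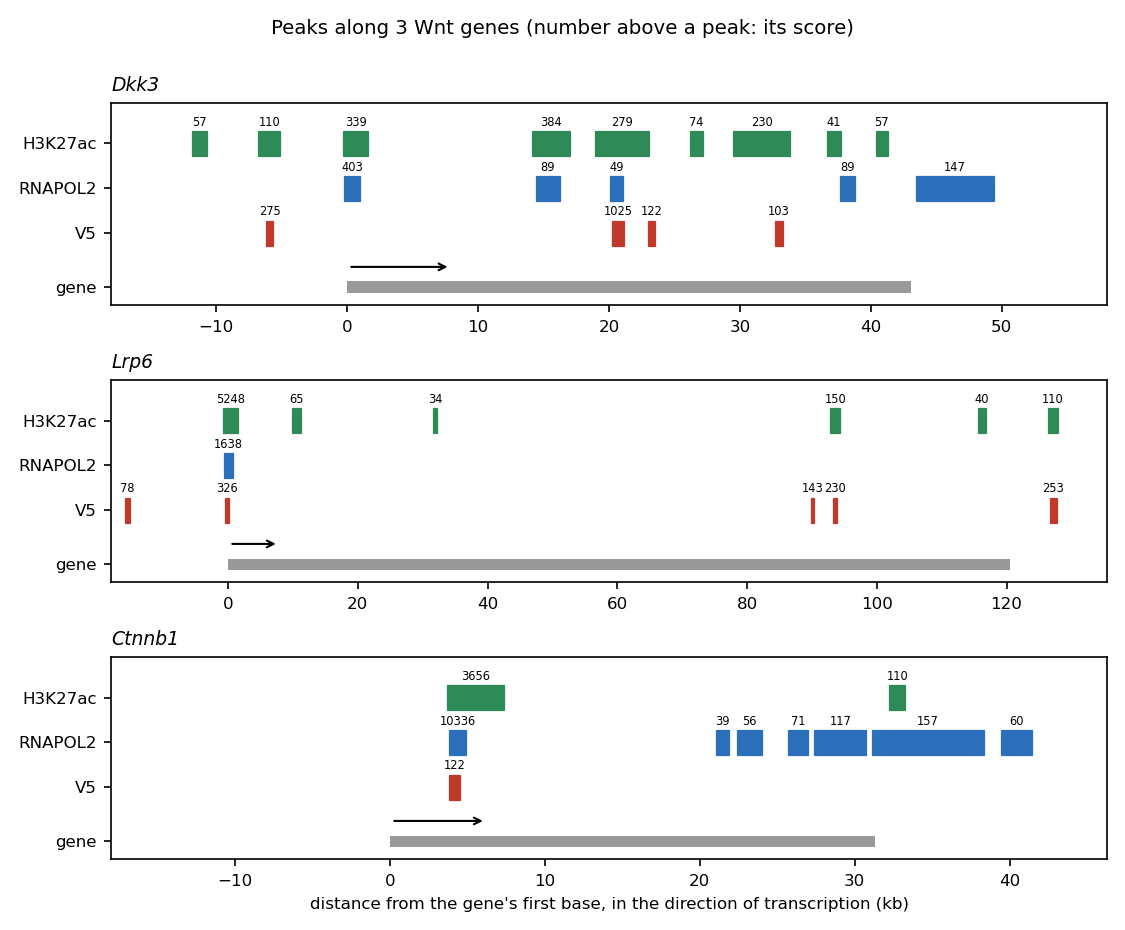
V5, RNAPOL2 and H3K27ac peaks along Dkk3, Lrp6 and Ctnnb1, drawn to scale as distance in kb from the first base of the gene in the direction of transcription, with the score above each peak and the gene as a grey bar. The V5 peak of 1025 in Dkk3 lies inside the gene among broad H3K27ac peaks, the V5 peak of 326 in Lrp6 lies at the promoter, and the RNAPOL2 peaks of Ctnnb1 resume in its distal part and continue past its end.

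Among the effectors, Ctnnb1 stood out by its polymerase. The gene for beta-catenin had an RNAPOL2 promoter score of 10336 (rank 30), above 99.8% of protein-coding promoters with a peak, and an H3K27ac score of 3656 (rank 531). Its V5 peak, at chr9:120933051-120933720 with its middle 15 bp upstream of a TSS, scored 122 (rank 7874), under the protein-coding median of 196. A further 5 RNAPOL2 peaks, with scores from 39 to 157, lay along the distal part of the gene and past its end, and the widest of them reached 7033 bp beyond it. They are counted as promoter peaks because transcripts start there in the annotation, and 2 of them also touched windows of Ulk4.

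Axin1, Axin2 and Apc, of the destruction complex, and Tcf7, Tcf7l1 and Tcf7l2 had RNAPOL2 and H3K27ac at the promoter and no V5. Axin1 scored 2100 for RNAPOL2 and 1588 for H3K27ac, and Apc scored 1708 and 3083. Axin2, a feedback inhibitor that is widely used as a reporter of beta-catenin activity, combined a low RNAPOL2 score of 302, above 16% of protein-coding promoters, with a high H3K27ac score of 2472 (rank 1426), above 87.3%. Tcf7l2 scored 628 and 1185, Tcf7l1 scored 715 and 559, and Tcf7 scored 294 and 297. Lef1, a TCF family factor and itself a known target of the pathway, had no peak in any list at its promoter or in its body.

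Other genes of the pathway, outside the set of 48, carried V5 at promoters of cytoplasmic and nuclear components. Of 39 such genes, V5 was at 10 promoters (25.6%), RNAPOL2 at 30 (76.9%) and H3K27ac at 28 (71.8%), beside the 16.6%, 53.5% and 58.6% of protein-coding genes. Among those with both RNAPOL2 and H3K27ac at the promoter, V5 was at 10 of 28 (35.7%), beside 30.4%. All 10 nuclear cofactors had RNAPOL2 and H3K27ac, and 6 had V5: Bcl9 and Bcl9l, which tether beta-catenin to its coactivators, and Tle1, Tle3, Tle4 and Ctbp1, which are co-repressors. Of 10 cytoplasmic components, 4 had V5: Dvl1, Gsk3a, Csnk1a1 and Csnk1e. Of 9 genes of the R-spondin module, which controls the amount of Frizzled at the surface, Lgr4, Rnf43 and Znrf3 had both RNAPOL2 and H3K27ac, whereas Rspo1 to Rspo4, Lgr5 and Lgr6 had no promoter peak. The co-receptors Ror1, Ror2, Ryk and Ptk7 had both marks and no V5 at the promoter, though Ror1 and Ror2 had V5 in the body. Of the other genes grouped with them, Kremen1 had both marks at the promoter and V5 in the body alone, and Kremen2 and Dkk4 had no promoter peak. In all, V5 was in the body of 5 of the 39 genes (12.8%), beside 7.10% of protein-coding genes: Znrf3, Ror1, Ror2, Kremen1 and Tle1. Of the genes that handle the ligand, Wls, which carries it to the surface, had both marks, Porcn, which attaches its lipid, had RNAPOL2, and Notum, which removes the lipid outside the cell, had none. Of 7 known targets of the pathway, Myc and Jag1 had all 3 peaks, Ccnd1, Sp5 and Cd44 had RNAPOL2 and H3K27ac, and Ascl2 and Mmp7 had none. All 3 peaks were thus at 2 of 7 targets (28.6%), beside 15.9% of protein-coding genes. RNAPOL2 and H3K27ac together were at 5 (71.4%), beside 52.2%. Among those 5, V5 was at 2 (40.0%), beside 30.4%. With 7 targets, a single gene moves these shares widely.

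Most V5 peaks that had a Wnt gene as their nearest protein-coding gene lay away from promoters, as did most V5 peaks in general: 31 of 36 (86.1%) were not at a promoter of that gene, beside 66.3% of all 10665 V5 peaks. The 36 lay nearest to 17 of the 48 genes (35.4%), or 0.750 per gene, while 23.2% of protein-coding genes had such a peak, with 0.486 per gene. Receptors had 15 (1.25 per gene), antagonists 12 (1.33), effectors 5 (0.625) and ligands 4 (0.211), and most of those of the antagonists were nearest to Dkk2. Such a peak was listed for 7 receptors (58.3%), 3 antagonists (33.3%), 3 effectors (37.5%) and 4 ligands (21.1%). The closest V5 peak lay within 100 kb of a TSS for 35 Wnt genes (72.9%) and for 55.9% of protein-coding genes, at a median distance of 65777 bp and 76092 bp. Nearness is a position and not a measured link between the peak and the gene. At the limit of the promoter window, the farthest V5 peak inside was 2082 bp from a TSS (Lrp6) and the nearest outside were 5587 bp (Lrp6) and 5918 bp (Dkk3).

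The highest V5 scores near the set were at Fzd10 and Wnt7a. The Fzd10 peak, at chr5:128533521-128535300, scored 3233 (rank 200), lay 66434 bp upstream of the TSS in intergenic sequence on an H3K27ac peak of 160, and held a pair of strings of TGA or TCA units, of 5 and 6 units. The Wnt7a peak, at chr6:91440551-91441350, scored 3037 (rank 229) and lay 29587 bp upstream of Wnt7a, on an RNAPOL2 peak of 1054 and an H3K27ac peak of 226. Its only motif, TGACGTCA, was 8 bp from the middle of the peak, and no other V5 peak assigned to a Wnt gene held that motif. Wnt7a itself had no promoter peak, while the middle of the peak lay 37 bp upstream of a TSS of the long noncoding RNA gene 1810044D09Rik and 38 bp upstream of a TSS of 4930471M09Rik, a transcribed pseudogene on the opposite strand. The RNAPOL2 and H3K27ac peaks at this position thus lay at promoters other than that of Wnt7a.

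Dkk2 had the most V5 peaks nearest to it, 7, with scores of 1477, 1031, 993, 363, 239, 207 and 142. They lay between 78407 and 258708 bp from its TSS, and the 3 highest overlapped H3K27ac peaks of 225, 150 and 205. Fzd5 had a V5 peak of 785, 37569 bp upstream, that overlapped neither mark and held an AP1 match, 4 variants of the ATF/CREB motif and a string of 5 units. Among ligands, the V5 peaks nearest Wnt11 (67, 19457 bp upstream) and Wnt7b (56, 75402 bp upstream) were low. They lay on H3K27ac peaks of 545 and 4443 and on RNAPOL2 peaks of 689 and 117.

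**Figure D4:**
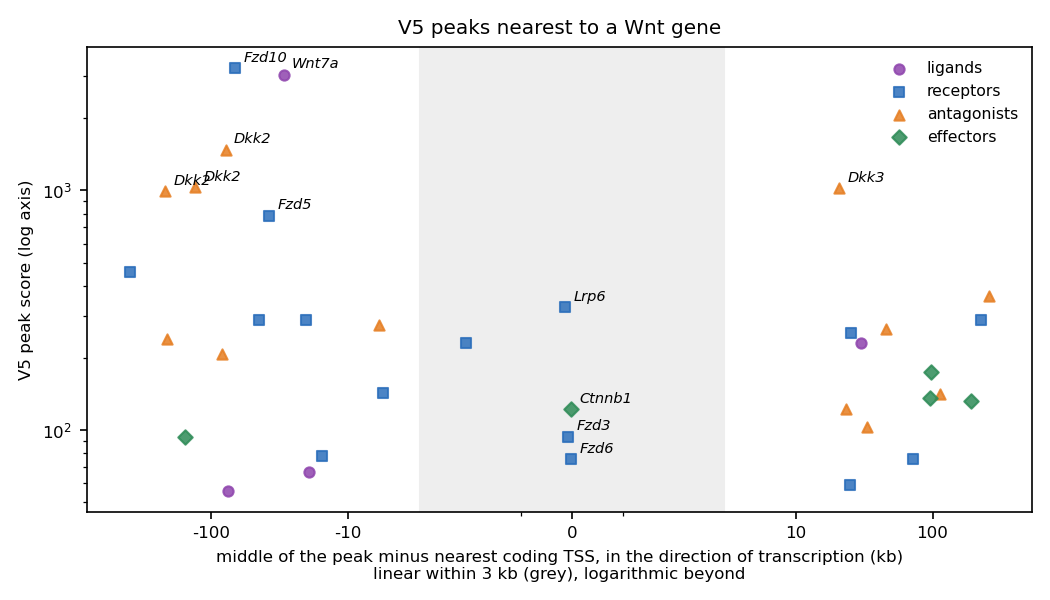
V5 peaks whose nearest protein-coding TSS belongs to a Wnt gene (36 peaks), with the distance of the middle from that TSS in kb (negative upstream, linear within 3 kb in grey and logarithmic beyond) against the score (log axis), by role. The highest scores, at Fzd10 (3233), Wnt7a (3037) and Dkk2 (1477), lie upstream and outside the promoter window, and the peaks at promoters score between 76 and 326.

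The motifs under the fusion were counted for the 10 V5 peaks at promoters or in bodies of Wnt genes. The ATF/CREB motif was in 0 of the 10, beside 8.51% of all 10665 V5 peaks, its variants were in 2 (20%, beside 40.3%), AP1 was in 3 (30%, beside 26%), TCF/LEF in 2 (20%, beside 12%) and a string in 1 (10%, beside 10.2%). At least 1 of these was in 5 (50%, beside 64.4%). An AP1 match and a string can share bases, as in Dkk3. The TCF/LEF matches both lay in peaks of Lrp6, and the AP1 matches in peaks of Dkk3 and Fzd3. In the central 200 bp, TCF/LEF was in 0 of the 10 (beside 3.14%) and the variants in 0 (beside 17.7%). There the ATF/CREB motif was in 0 (beside 5.36%), AP1 in 2 (20%, beside 10.5%) and a string in 1 (10%, beside 4.37%). With 10 peaks, a single peak moves a share by 10 percentage points. In RefSeq promoter sequences (GRCm38, 250 bases before to 50 after a start), available for 33 of the genes, the ATF/CREB motif was in 0, beside 2.03% of 27025 genes. A TCF/LEF match was in 2 (6.06%), Wnt11 and Wnt5b, beside 4.29%. Variants of the ATF/CREB motif were in 2 (6.06%), Axin2 and Wnt5b, beside 14.1%. An AP1 match was in 1 (3.03%), Wnt5b, beside 5.95%, and a string in 0, beside 2.08%.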

How the data were processed

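ChIP-seq of mouse tumours expressing V5-tagged EWSR1::ATF1 was processed by the authors. Per the labels and the study's methods, reads were aligned to mm10 with BWA 0.7.10-r789, and peaks were called with MACS2 2.2.6 against input, in broad mode for H3K27ac. Duplicates and denylisted regions were removed. The deposited lists, 1 per antibody, give each peak a whole-number score, whose scale the authors do not state. The labels give 4 samples per antibody, while the methods count more for V5 and RNAPOL2. Which samples made up a peak list, and how replicates were combined in it, is not stated. A weak site missed by the caller is absent from a list, and neighbouring sites can be merged.

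Genes and TSSs came from GENCODE vM21 and sequence from GRCm38.p6, the build of the lists. Starts were converted to 1-based positions, and 0 peaks ran beyond a chromosome. Peaks were assigned within 3 kb of a TSS or to gene bodies, and in addition each V5 peak went to its nearest protein-coding TSS. Every gene of the set was accounted for by role; those given in full had V5 at the promoter or in the body, RNAPOL2 with H3K27ac at the promoter, or no promoter peak. The genes, lists and motifs were chosen with earlier results of these data known. Functions were tested on simulated data. Other windows, TSS sets, overlap rules and score limits were tried. Python 3.11.15, numpy 2.4.6, pysam 0.24.0 and matplotlib 3.10.9 were used.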

Additional observations from a re-analysis of the deposited data

How the results depend on the processing

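Of 41 values for the whole set recomputed under other settings, 3 of them (body peaks that touch no coding promoter) added after the values were seen, 34 stayed within 1.5 times the reported count. The 7 others came from stricter limits. With the upper 50% of each list by score, which leaves fewer peaks to count, V5 stayed at 1 promoter (Lrp6) in place of 4, all 3 lists met at 1 promoter in place of 4, V5 body peaks were at 1 gene in place of 3, RNAPOL2 body peaks at 1 in place of 6, H3K27ac body peaks at 4 in place of 10, and 19 V5 peaks in place of 36 had a Wnt gene nearest. By role, this limit left V5 at 1 receptor in place of 3 and at 0 effectors in place of 1, H3K27ac at 2 ligands in place of 5 and at 2 antagonists in place of 5, and RNAPOL2 at 1 antagonist in place of 3. Over protein-coding genes the promoter shares then were 7.30% for V5, 46.6% for RNAPOL2 and 50.1% for H3K27ac. With motifs searched in the central 200 bp, 2 of the 10 V5 peaks in place of 5 held at least 1 motif, while over all V5 peaks the share went from 64.4% to 34.3%. With windows of 5 kb, Sfrp4 gained RNAPOL2 and H3K27ac promoter peaks, which gave 26 and 29 genes. No paired analysis was possible because each antibody has 1 peak list with no values by sample. The lists state neither depth nor error, so a gene without a peak may still carry signal below the caller's threshold.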
